A study of Mus musculus with 12 samples.

Results

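Hippocampus and cortex of WT mice were compared for the genes that the authors listed in both tissues. Genes were taken into the comparison when their identifier stood in the hippocampus table and in the cortex table, which held 196 of the 1017 genes listed in either table. The hippocampus table lists 652 genes and the cortex table holds 561 genes. A gene was listed only where the authors had called it different between BK KO and WT mice in that tissue, and the WT libraries compared here took part in that choice. The 196 genes are therefore a selected set, and regional differences of any other gene are not described. The comparison used 6 of the 12 libraries, 3 of WT hippocampus and 3 of WT cortex.

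The WT mice were adult C57BL/6 mice with both copies of Kcnma1 intact (kcnma1+/+), bred from BK+/- pairs that also gave the BK KO mice. The methods state male BK KO mice about 3 months old for the experiments that followed breeding, but do not state sex or exact age for the sequenced WT mice. Both tissues were removed from the same mice, frozen and used for poly-A RNA sequencing, but the labels do not say which hippocampus and which cortex library came from the same mouse. The libraries of BK KO mice (kcnma1-/-, the same strain, with a frameshift deletion in exon 4 of Kcnma1) are not part of the comparison, and their own regional values are given only beside it, near the end.

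Hippocampus and neocortex are neighbouring parts of the forebrain. Both are built of excitatory pyramidal cells, GABAergic interneurons, astrocytes, oligodendrocytes, microglia and blood vessels, while the granule cells of the dentate gyrus belong to the hippocampus and the layered projection neurons to the neocortex. The BK channel, a potassium channel opened by voltage and by calcium, is present in neurons of both and shapes the action potential and transmitter release.

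Levels are given in FPKM, fragments scaled to the length of the transcript and to the fragments of the library, so that levels can be compared between genes. The unit was inferred from the values. FPKM is scaled within each library. The tables were made separately for each tissue, and a common scaling of both over all genes was not possible with listed genes alone, which holds for every comparison of levels between the tissues below. The depth of the libraries is unknown. Differences are hippocampus minus cortex on the log2(FPKM + 1) scale, which understates the difference of genes with low FPKM.

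The shared genes hardly allowed the tissue labels to be checked. Of 18 markers of hippocampal fields and the dentate gyrus, 1 was shared, Wfs1, which encodes an endoplasmic reticulum membrane protein and is known in CA1 pyramidal cells and also in upper-layer cortical neurons. Its FPKM was 52.6, 33.9 and 29.8 in WT hippocampus and 34.7, 38.9 and 37.6 in WT cortex, so that the groups overlapped and the marker did not separate the tissues. Of 26 cortical layer markers, 0 were shared. Of these markers, 8 stood in the hippocampus table alone, and their levels in cortex were not analysed here. They summed to 112, 76.1 and 108 FPKM in the 3 WT hippocampus libraries, with Lamp5 the most abundant (66.0, 35.6 and 64.6 FPKM). Fezf2, a transcription factor of deep-layer projection neurons, had 11.8, 14.7 and 10.6 FPKM there. Bok, a BCL2 family gene on the list of hippocampal fields, was listed in cortex alone and had 31.0, 29.5 and 19.3 FPKM in the 3 WT cortex libraries. Layer markers were thus not absent from the libraries labelled hippocampus, nor was this field marker absent from those labelled cortex, and how much of the other region a sample held was not tested.

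Markers of tissues around the dissected regions were also looked up. Of 33 skeletal muscle markers, 19 stood in the cortex table alone, and they summed to 98.3, 38.8 and 32.1 FPKM in WT cortex 1, 2 and 3, with Acta1, skeletal muscle actin, the most abundant (25.98, 13.2 and 9.73 FPKM). None of the 19 was at 0 in a WT cortex library. The only muscle marker in the hippocampus table was Cacna1s, a muscle calcium channel subunit (0.0449, 0.0248 and 0.0539 FPKM). Levels of the 19 in hippocampus and of Cacna1s in cortex were not analysed here, so the tissues were not compared for muscle markers. Hba-a2, the only red blood cell marker of 7 that was listed, had 32.8, 17.6 and 18.1 FPKM in WT cortex. WT cortex 1 was therefore the highest of its group for muscle markers as a sum and for hemoglobin. Of 13 striatal markers, 2 were listed, each in 1 table. Tac1, a neuropeptide gene that is also on the list of interneuron markers, had 3.97, 3.29 and 26.6 FPKM in hippocampus, high in WT hippocampus 3. Pdyn, which encodes prodynorphin, had 8.58, 16.3 and 9.92 FPKM in cortex. Of 19 hypothalamic and pituitary markers, 2 were listed, both in hippocampus alone. Trh, the gene of thyrotropin-releasing hormone, had 0.345, 3.43 and 2.09 FPKM, and Gh, growth hormone, was at 0 in all 3 WT libraries. The lists of choroid plexus and ependymal, astrocyte, microglial, meningeal, thalamic, hypothalamic and pituitary, and excitatory neuron markers had 0 shared genes. The part of other tissues in the regional values was not tested.

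WT cortex 1 also stood apart in the shared genes. Among the 194 shared genes without a 0, it held the lowest value of the 6 WT libraries in 62 genes, against 13 to 35 genes for each of the other libraries. Its median difference from the mean of the 6 libraries was -0.07 on the log2 scale, against -0.01 to 0.02 for the others. The count at an unadjusted p-value under 0.05, the median difference and several genes are given below with and without this library, and the part of its muscle marker level in them was not tested.

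In WT mice the shared genes had nearly the same level in hippocampus and in cortex. The median gene had a mean of 2.36 FPKM in hippocampus (quartiles 0.933 and 7.45) and 2.39 FPKM in cortex (quartiles 0.999 and 7.30). A mean of at least 1 FPKM was reached by 143 genes in hippocampus and 147 in cortex, and a mean of at least 10 FPKM by 35 genes in each. The ratio of the tissue means was within 1.2 in either direction in 149 of 196 genes. It was beyond 1.5 in 11 genes, each with a mean under 1 FPKM in the lower tissue. Across the 196 genes, which are not independent and were measured in the same libraries, the tissue means had a Spearman rho of 0.992. Means spanned 0.0197 to 390 FPKM in hippocampus, and so wide a range favours a high rho by itself. A gene also had to be called in both tissues, which disfavours genes present in 1 tissue only. How far this choice shaped the similarity was not tested.

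**Figure D1:**
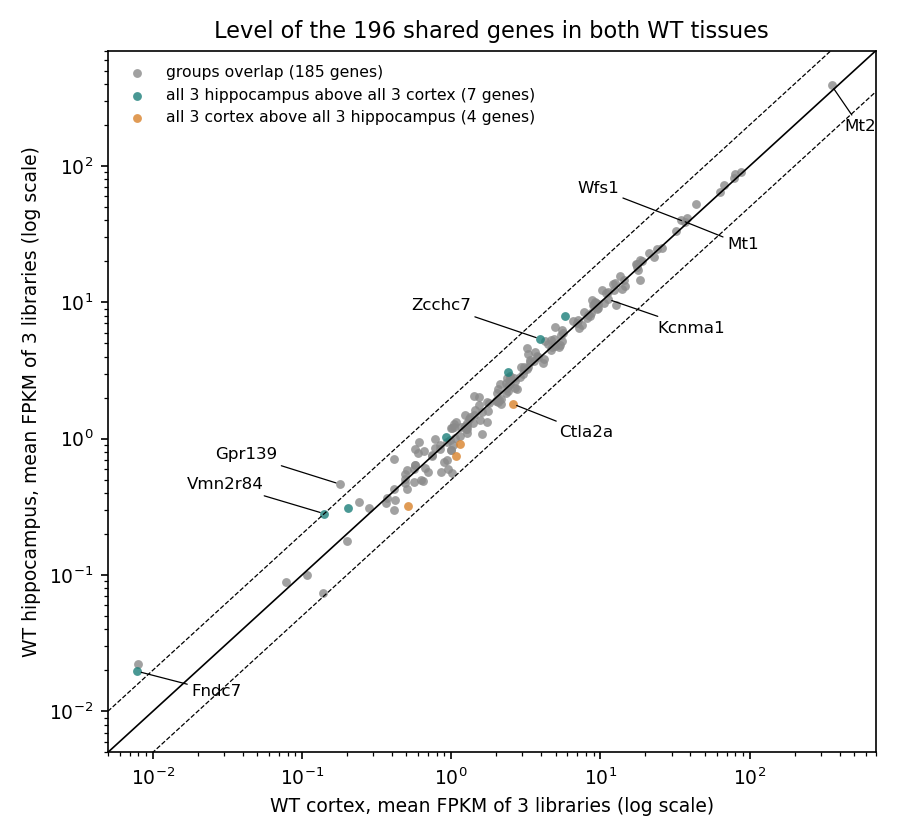
Mean FPKM of each of the 196 shared genes in WT cortex (horizontal log axis, 3 libraries) against WT hippocampus (vertical log axis, 3 libraries), with the solid line at equal levels and the dashed lines at a ratio of 2. Points lie along the solid line from under 0.1 FPKM to Mt2, and 11 genes whose groups did not overlap are colored.

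The most abundant shared gene was Mt2, a metallothionein that binds zinc and copper and is induced by glucocorticoids and metals. It had 350, 439 and 382 FPKM in WT hippocampus (390 ± 44.8, SD, n = 3) and 350, 378 and 333 FPKM in WT cortex (354 ± 22.7, SD, n = 3). Mt1, its close relative, had 35.8, 44.03 and 40.1 FPKM in hippocampus and 39.4, 35.1 and 30.0 FPKM in cortex. The groups overlapped for both genes, with differences on the log2 scale of 0.14 for Mt2 (0.05 to 0.21 with each library left out) and 0.20 for Mt1 (0.10 to 0.29). The 10 most abundant shared genes were the same 10 in both tissues. They included Car2, the carbonic anhydrase of oligodendrocytes (means of 87.3 FPKM in hippocampus and 79.7 in cortex), and Sparc, a secreted matrix-binding protein (81.2 and 78.3 FPKM). Scg2, a granin of dense-core vesicles, had means of 64.7 and 63.6 FPKM, and Wfs1 was also among the 10.

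No shared gene passed the test between the WT tissues. With limma, 0 of 196 genes (0%) reached an adjusted p-value below 0.05, and the lowest was adjusted p = 0.996. At an unadjusted p-value under 0.05, 3 genes (1.53%) were counted, 1 higher in hippocampus (Zcchc7) and 2 higher in cortex (Ctla2a and Hfe2). That share is below the 0.05 that the threshold itself allows for genes without a difference. This count was 0 without WT cortex 1 and 0 without WT hippocampus 3, and it was 8 without WT hippocampus 1 and 8 without WT cortex 3. With the libraries matched as mice in each of the 6 possible ways and the match taken as a block, 0 genes reached an adjusted p-value below 0.05 and 0 to 6 genes an unadjusted one. These fits, apart from the one by library number, were added after seeing the data. The exact two-sided permutation test of 3 libraries against 3 cannot give a p-value under 0.1 for a single gene. The estimate of spread in the fit came from these selected genes only, and the p-values measure the spread between these libraries.

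The size of difference that the data allow was bounded for most genes. Differences ran from -0.41 to 0.39, with quartiles of -0.07 and 0.12 and a median of 0.02, and 116 genes were positive and 80 negative. Without WT cortex 1 the median was -0.00. The median absolute difference was 0.09, against a median standard deviation within a tissue of 0.17 in hippocampus and 0.17 in cortex. The 95% interval of a difference had a median half-width of 0.35. It lay between -1 and 1 in 194 of the 196 genes, and in 141 of the 143 genes with a mean of at least 1 FPKM over the 6 libraries. It lay between -0.58 and 0.58, the limit the authors used for their own calls, in 154 genes, but in only 108 of those 143. With a pseudocount of 0.1 in place of 1 the count within 0.58 was 51. The other genes may differ by more than 0.58 without the test having shown it.

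**Figure D2:**
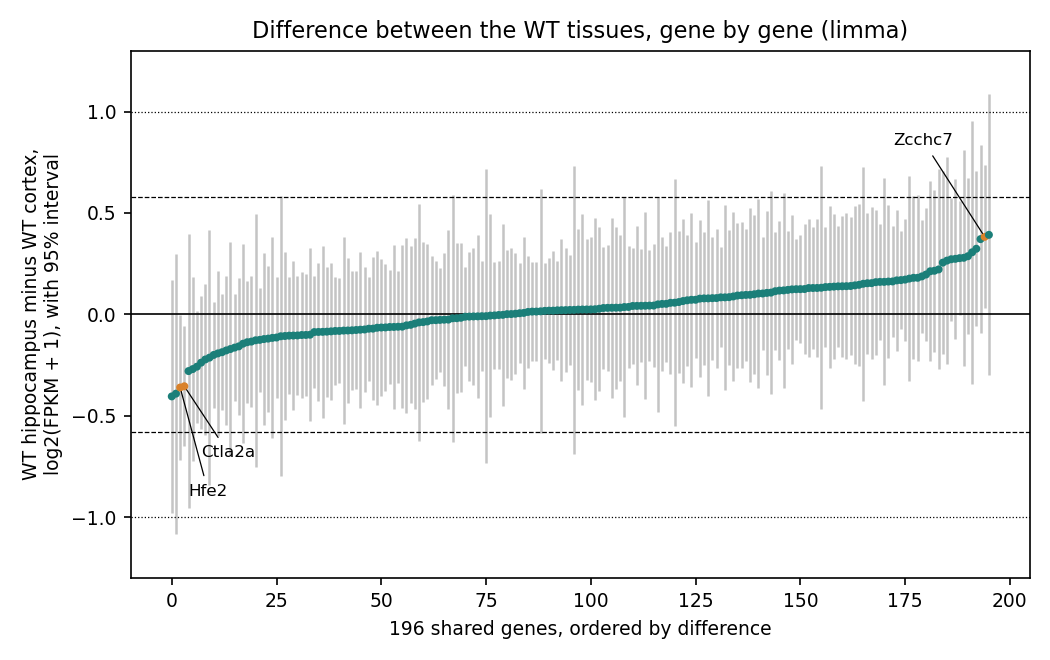
Difference between WT hippocampus and WT cortex (vertical axis, log2(FPKM + 1)) for the 196 shared genes in order of size (horizontal axis), with the 95% interval of each from limma as a grey line, dashed lines at 0.58 and -0.58 and dotted lines at 1 and -1. The 3 genes in orange had an unadjusted p-value under 0.05, and 2 intervals pass a dotted line.

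The wide intervals belonged to genes that differed between mice of the same tissue. Cdkn1a, the cyclin-dependent kinase inhibitor induced by p53 and by glucocorticoids, had 21.2, 8.32 and 14.2 FPKM in hippocampus and 21.8, 14.9 and 18.6 FPKM in cortex. Its difference was -0.39 (95% interval -1.08 to 0.30), the groups overlapped, and it was -0.06 without WT hippocampus 2. Strip2, a striatin-interacting protein, had 2.43, 5.94 and 5.56 FPKM in hippocampus and 2.89, 4.49 and 2.24 FPKM in cortex. Its difference of 0.39 (-0.30 to 1.09) was the highest of all and its groups overlapped, and it was 0.72 without WT hippocampus 1 and 0.21 without WT hippocampus 2. Myoc, the secreted glycoprotein myocilin, had the lowest difference, -0.41 (-0.98 to 0.17), with 11.8, 10.6 and 6.14 FPKM in hippocampus and 14.96, 9.54 and 13.6 FPKM in cortex. It was -0.15 without WT hippocampus 3, the library with the lowest value. Apln, which encodes the peptide apelin, was low in library 2 of each tissue (14.4, 6.39 and 15.1 FPKM in hippocampus, 13.7, 8.67 and 11.3 FPKM in cortex). Etnppl, an enzyme of ethanolamine phosphate breakdown known in astrocytes, was high in library 2 of each (4.62, 9.43 and 6.40 FPKM, and 4.79, 10.8 and 6.99 FPKM).

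In 11 of 196 genes (5.61%) the WT groups did not overlap, 7 with hippocampus higher (3.57%) and 4 with cortex higher (2.04%). If the 6 libraries were independent and the tissues alike, a gene would separate in this way with a probability of 0.1. The share seen was below that, so the genes are described by level only and not as regional differences. Of the 11 genes, 5 had a mean of at least 1 FPKM over the 6 libraries, among them Zcchc7, Cdh24, Ctla2a and Gbp3. Zcchc7, a zinc knuckle protein of nuclear RNA surveillance, had 4.82, 5.87 and 5.47 FPKM in hippocampus and 3.03, 4.32 and 4.47 FPKM in cortex. Its difference was 0.38 (95% interval 0.03 to 0.73), and 0.24 without WT cortex 1, its lowest library. Cdh24, a cadherin of cell adhesion, had 2.996, 3.11 and 3.22 FPKM in hippocampus and 2.30, 2.11 and 2.81 FPKM in cortex. The hippocampus libraries lay close together and above all cortex libraries, with a difference of 0.28 (-0.00 to 0.56). Maff, a small basic leucine zipper transcription factor, was not among these 5 genes. It had 1.09, 1.02 and 0.991 FPKM in hippocampus and 0.966, 0.970 and 0.822 FPKM in cortex. Its difference was 0.08, so that the groups were separate but close. The difference was smaller without WT cortex 3, the lowest library for this gene.

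Another 3 genes with higher hippocampus values were lower than Maff in every WT library. Vmn2r84, a vomeronasal receptor gene, had 0.301, 0.257 and 0.288 FPKM in hippocampus and 0.172, 0.137 and 0.113 FPKM in cortex. Gm14391, a predicted gene, had 0.285, 0.376 and 0.270 FPKM in hippocampus and 0.162, 0.206 and 0.239 FPKM in cortex. Both belong to large gene families with similar sequences, which can make their values uncertain, and this was not tested. The third, Fndc7, was under 0.03 FPKM in every WT library and listed at 0 in WT cortex 1.

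Among the genes with higher values in cortex, Ctla2a, an inhibitor of cysteine proteases of the cathepsin L type, had 1.93, 1.86 and 1.601 FPKM in hippocampus and 2.89, 2.72 and 2.15 FPKM in cortex. Its difference was -0.36 (95% interval -0.65 to -0.06), and -0.29 without WT cortex 1. Lancl3 had 0.932, 0.581 and 0.711 FPKM in hippocampus and 1.097, 1.05 and 1.08 FPKM in cortex, where the 3 libraries were close together. C3ar1, a complement receptor of microglia and other myeloid cells, had 0.236, 0.351 and 0.370 FPKM in hippocampus and 0.428, 0.599 and 0.521 FPKM in cortex. Gbp3, an interferon-induced GTPase, had 0.857, 0.952 and 0.944 FPKM in hippocampus and 1.36, 1.05 and 1.05 FPKM in cortex, the highest in WT cortex 1. Its difference was -0.16, and -0.10 without that library. Hfe2, which encodes hemojuvelin and is known for its level in skeletal muscle and liver, nearly joined these genes, with 0.741, 0.403 and 0.535 FPKM in hippocampus and 1.38, 0.733 and 0.929 FPKM in cortex. Only WT hippocampus 1 and WT cortex 2 overlapped, and the difference was -0.36 (-0.72 to -0.00). It was -0.23 without WT cortex 1, the library with the highest muscle marker sum, and the part of that sum in it was not tested.

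**Figure D3:**
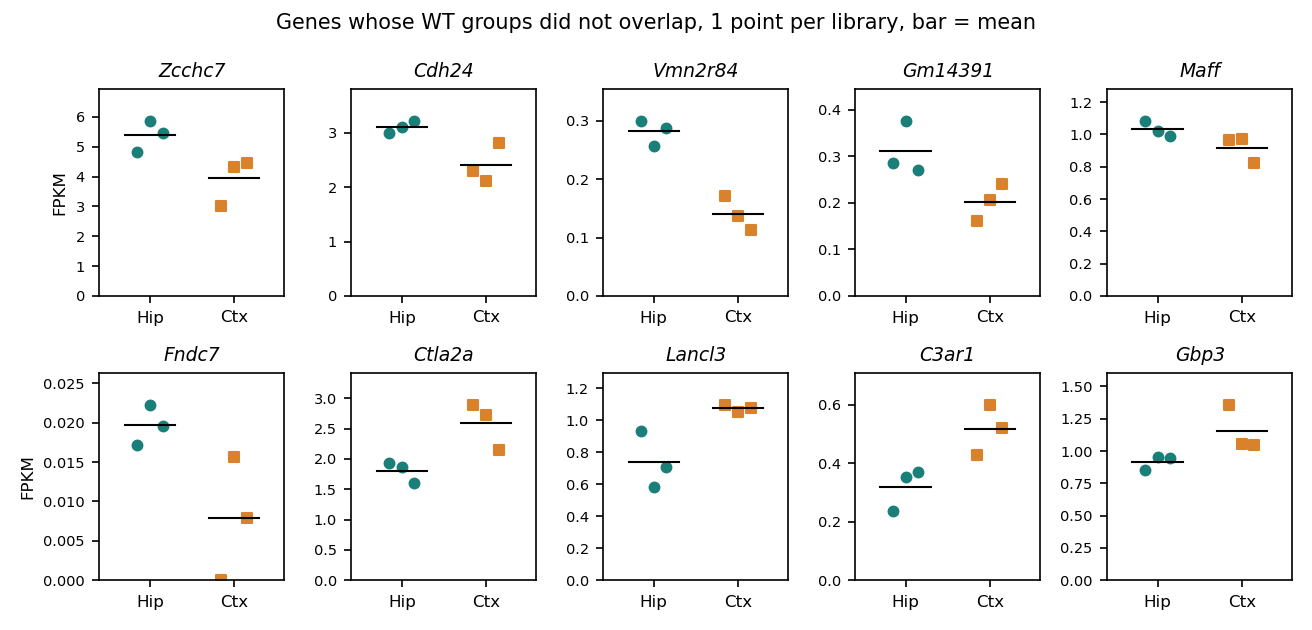
FPKM of 10 of the 11 genes whose WT groups did not overlap, each on its own vertical axis from 0, with 1 point per library, hippocampus (Hip) as teal circles, cortex (Ctx) as orange squares and the mean as a bar. The first 6 panels have hippocampus higher, the last 4 have cortex higher, and most of the 10 genes lie near or under 1 FPKM.

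Kcnma1, the gene of the BK channel's pore subunit, was the only 1 of 9 BK channel subunit genes among the shared genes. WT hippocampus had 11.3, 10.6 and 9.67 FPKM and WT cortex 11.98, 9.82 and 11.8 FPKM. The groups overlapped, with a difference of -0.08 (95% interval -0.37 to 0.21), an interval that does not reach 0.58 in either direction. The difference ran from -0.16 to -0.02 with each library left out in turn. Grm3, a metabotropic glutamate receptor that lowers cyclic AMP, had 14.9, 11.1 and 13.7 FPKM in hippocampus and 15.2, 15.3 and 13.2 FPKM in cortex. Its difference was -0.13, and -0.02 without WT hippocampus 2, and its groups overlapped. Gad2, an enzyme of GABA synthesis and the only shared interneuron marker of 23, had 12.8, 14.7 and 16.4 FPKM in hippocampus and 14.3, 15.6 and 12.9 FPKM in cortex, which also overlapped. Npas4, the only shared activity-induced gene of 24, encodes a transcription factor induced by neuronal calcium entry. It had 2.67, 1.68 and 2.68 FPKM in hippocampus and 2.53, 1.79 and 3.68 FPKM in cortex.

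Genes related to stress overlapped between the tissues. Of 19 glucocorticoid-induced genes, 4 were shared (Fkbp5, Cdkn1a, Mt1 and Mt2), 2 with a positive and 2 with a negative difference, and 0 passed the test. Their median difference was 0.05, against 0.02 over all shared genes. Fkbp5, a co-chaperone of the glucocorticoid receptor, had 7.36, 10.6 and 7.17 FPKM in hippocampus and 9.90, 9.01 and 7.004 FPKM in cortex. Of 18 p53 target genes, 2 were shared, Cdkn1a and Igfbp3, a carrier of insulin-like growth factors, and 0 passed the test. Igfbp3 had 4.35, 5.56 and 3.52 FPKM in hippocampus and 4.89, 5.58 and 3.58 FPKM in cortex, with library 3 the lowest of each tissue. Neil1, a DNA glycosylase of base excision repair, had 1.91, 2.23 and 1.21 FPKM in hippocampus and 1.71, 2.54 and 2.25 FPKM in cortex, and a difference of -0.19, which was -0.04 without WT hippocampus 3. Ucp2, a carrier of the mitochondrial inner membrane, had 11.9, 18.5 and 10.2 FPKM in hippocampus and 14.9, 13.2 and 8.46 FPKM in cortex. Alpl, the tissue-nonspecific alkaline phosphatase, had 3.05, 4.17 and 2.58 FPKM in hippocampus and 3.63, 3.18 and 2.81 FPKM in cortex. The groups overlapped for all of these genes. For Ucp2 and Alpl the differences of 0.13 and 0.01 changed sign without WT hippocampus 2 and without WT cortex 3.

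**Figure D4:**
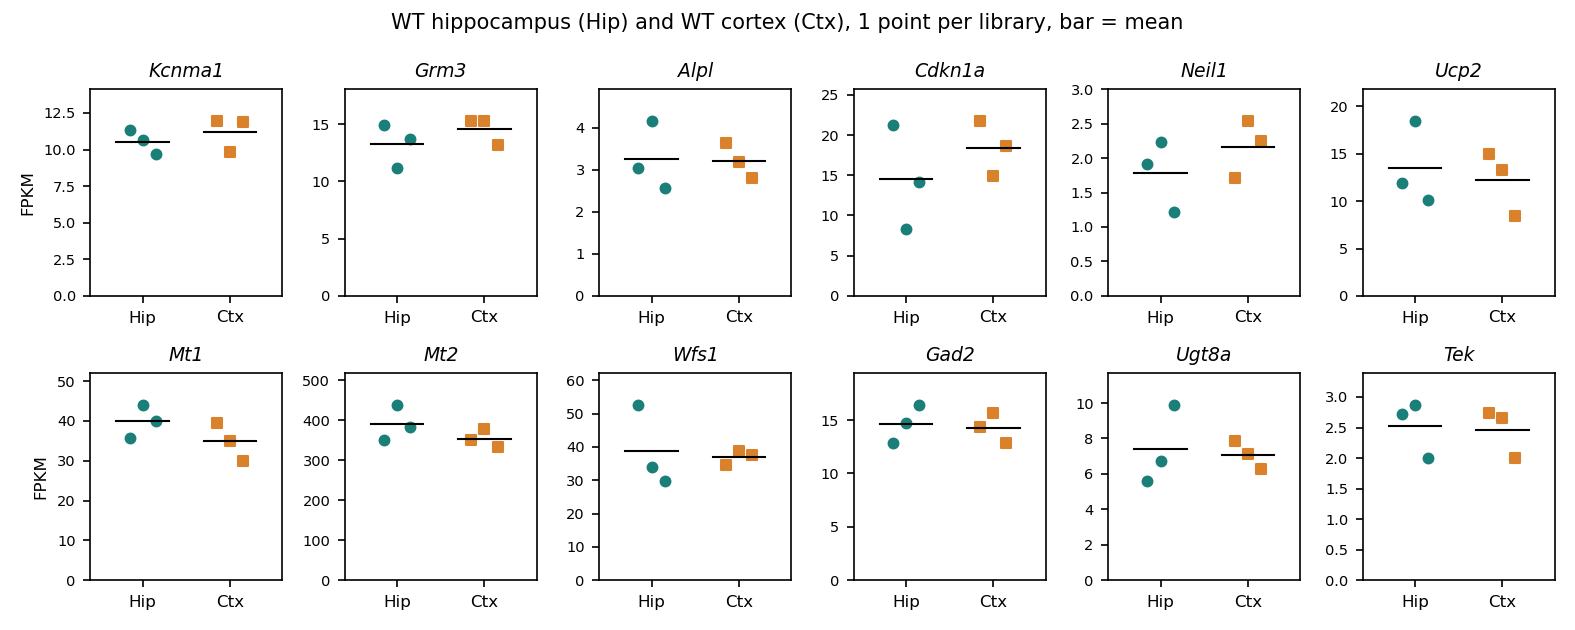
FPKM of 12 shared genes in WT hippocampus (Hip, teal circles) and WT cortex (Ctx, orange squares), each on its own vertical axis from 0, with 1 point per library and the mean as a bar. In all 12 panels the points of the tissues overlap.

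Markers of glia and vessels were also compared. Of 27 oligodendrocyte and precursor markers, 3 were shared and 0 passed the test. Opalin, a membrane protein of myelinating oligodendrocytes, had 10.04, 23.9 and 20.7 FPKM in hippocampus and 15.6, 23.1 and 14.2 FPKM in cortex, the widest spread within tissues of the 196 genes. Ugt8a, the enzyme that makes galactocerebroside for myelin, had 5.57, 6.70 and 9.90 FPKM in hippocampus and 7.87, 7.11 and 6.29 FPKM in cortex. The groups overlapped for both genes. In bulk samples such as these, fewer cells of a type and less RNA per cell cannot be told apart.

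Of 29 endothelial and mural markers, 4 were shared and 0 passed the test, 3 with a positive and 1 with a negative difference and a median of 0.06. Tek and Tie1 encode receptor kinases of the angiopoietin system. Tek had 2.72, 2.87 and 2.00 FPKM in hippocampus and 2.74, 2.66 and 2.00 FPKM in cortex, and Tie1 had 3.98, 3.94 and 3.09 FPKM and 2.87, 3.90 and 3.35 FPKM. Emcn, an endothelial sialomucin, had 3.66, 3.79 and 2.58 FPKM in hippocampus and 3.44, 3.77 and 2.05 FPKM in cortex. Tek and Emcn were lowest in library 3 of each tissue. Itm2a, a membrane protein of endothelial cells in brain, was the most abundant, with 25.5, 26.2 and 23.9 FPKM in hippocampus and 24.7, 33.7 and 19.2 FPKM in cortex.

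Groups taken from the annotation of the tables stayed close to the median of all shared genes. The 97 terms carried by at least 5 shared genes (89 GO terms and 8 KEGG pathways) had medians from -0.12 to 0.13, and 0 of their genes passed the test. The 7 genes of the term collagen trimer had 5 positive and 2 negative differences and a median of 0.04. The highest was Col11a1, a fibrillar collagen chain, with 2.64, 1.42 and 2.12 FPKM in hippocampus and 1.23, 1.56 and 1.46 FPKM in cortex, which overlapped in the lowest hippocampus library. The 8 genes of angiogenesis had 4 positive and 4 negative differences and a median of -0.02, from Angptl4, an inhibitor of lipoprotein lipase (-0.28), to Shb, an adaptor protein of receptor kinase signaling (0.31). Angptl4 varied within cortex, with 2.04, 2.25 and 0.557 FPKM against 1.02, 1.56 and 0.665 FPKM in hippocampus, and Shb was high in WT hippocampus 3 alone (4.89, 4.86 and 10.02 FPKM against 4.54, 6.69 and 3.74 FPKM in cortex). Without WT hippocampus 3 the difference of Shb was 0.00, and that of Angptl4 ran from -0.62 without WT cortex 3 to -0.09 without WT cortex 2.

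Terms of neurons and of transcription were also looked up. The 6 genes of the term axon (Car2, Disc1, Gad2, Grm3, Kif13b and Robo3) had a median of 0.03, and the 8 genes of nervous system development also 0.03. The 14 genes of DNA binding transcription factor activity had 5 positive and 9 negative differences and a median of -0.03. The 5 genes of transcription factor complex (Heyl, Npas4, Smad9, Sox17 and Tfcp2l1) were all negative, from -0.18 to -0.03 with a median of -0.08, and the groups overlapped in each. The highest median, 0.13, was that of zinc ion binding with 8 genes, Mt1, Mt2 and Zcchc7 among them. The lowest, -0.12, was that of cytoplasmic vesicle with 7 genes, among them Myoc and Gbp3. The terms share genes and were not tested as sets.

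The libraries themselves did not fall into tissues by the shared genes. The median absolute difference between a pair of libraries on the log2 scale was 0.168 to 0.221 within hippocampus, 0.177 to 0.253 within cortex and 0.129 to 0.229 between the tissues. Its mean was 0.203 over the 6 pairs within a tissue and 0.181 over the 9 pairs between tissues. For 4 of the 6 libraries the nearest library was of the other tissue. WT hippocampus 2 and WT cortex 2 were the closest pair (0.129), followed by WT hippocampus 1 and WT cortex 3 (0.130). The farthest pair, WT cortex 1 and WT cortex 3 (0.253), was of the same tissue.

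**Figure D5:**
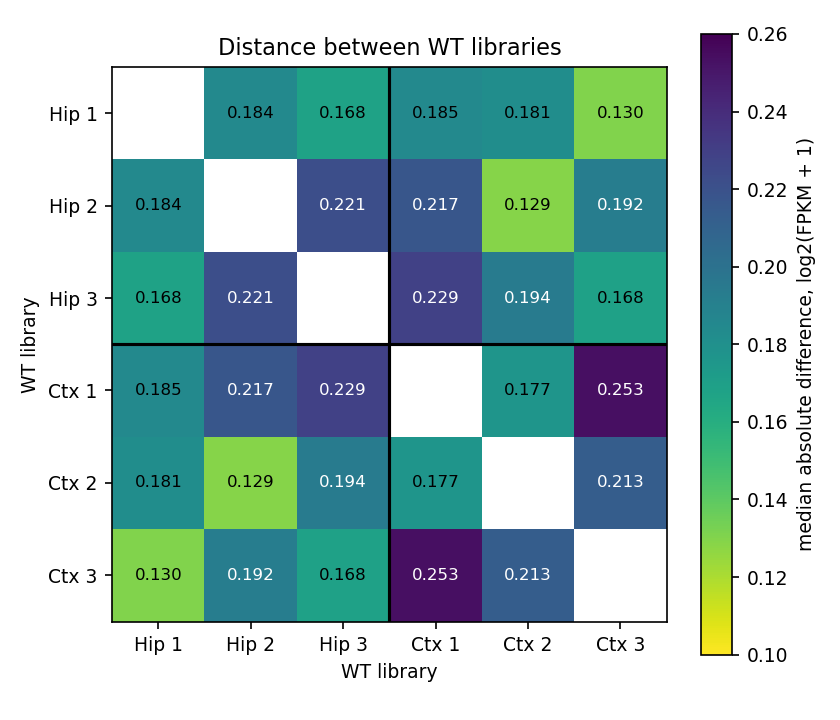
Median absolute difference in log2(FPKM + 1) over the 196 shared genes for each pair of WT libraries (Hip for hippocampus, Ctx for cortex, both axes), with the black lines between the tissues. The 2 smallest values, 0.129 and 0.130, lie in the block between tissues, and the largest, 0.253, lies within cortex.

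The authors' base means, their normalized means of each WT group, gave a second view of the level. The ratio of base mean to FPKM should differ between the tissues by the same factor for every gene when both follow the same reads. Its log2 difference, hippocampus minus cortex, had a median of -0.07 and an SD of 0.148 over the 196 genes. It was beyond 0.5 in either direction in 3 genes, Vmn2r84, Gpr139, an orphan receptor gene, and Fbxw15, an F-box gene. For 32 genes the tissue with the higher base mean was not the one with the higher mean FPKM. Mt1 and Mt2 were among them, with base means of 4699 and 2312 in hippocampus and 4846 and 2336 in cortex, so that the side of their small differences depended on the scale. For Vmn2r84 the base means were 46.9 in hippocampus and 36.0 in cortex, a smaller ratio than that of the FPKM values. Base means are given per group, so whether the libraries of Vmn2r84 separate on that scale was not tested.

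In BK KO mice the same 196 genes were also compared between hippocampus and cortex, in libraries that the WT values do not use. With limma 0 genes (0%) passed the test, the smallest adjusted p being 0.767. The unadjusted p-value was under 0.05 in 7 genes (3.57%), and in 29 with same-numbered libraries taken as pairs. That pairing was inferred from their correlation and is not given by the labels. Groups did not overlap in 20 genes (10.2%), 16 with hippocampus higher and 4 with cortex higher. That share is near the probability of 0.1 for independent libraries of tissues that are alike. Wfs1 and Hfe2, described below, were picked from these 20 genes with their values in view. The median difference was 0.05, and it was -0.043 when libraries were centred on their median. Wfs1, overlapping in WT mice, had 75.9, 124 and 80.1 FPKM in BK KO hippocampus and 58.2, 67.5 and 54.5 FPKM in BK KO cortex, so that every hippocampus library was above every cortex library. Hfe2 values were lower in BK KO hippocampus (0.104 and 0.163 FPKM, and 1 library listed at 0) than in BK KO cortex (0.400, 0.427 and 0.364 FPKM). The test of the difference between genotypes, the genotype by region interaction in limma, had 0 genes (0%) with an adjusted p-value under 0.05, 0 with an unadjusted one, and a smallest adjusted p = 0.998. Wfs1 had an unadjusted p = 0.090 and an adjusted p = 0.998 in that limma fit, so a difference between genotypes was not shown for it. That fit left the inferred pairing of the BK KO libraries out. With library numbers as a block in BK KO mice only, and likewise as a block in both genotypes, 0 genes passed the adjusted threshold and 4 had an unadjusted p-value under 0.05 (smallest adjusted p = 0.998 and 0.997 in limma). These blocked fits were added after seeing the data.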

How the data were processed

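Hippocampus and cortex of 3 WT and 3 BK KO mice gave 12 poly-A libraries. The authors processed the reads with tools that their notes name as DESeq 1.10.1 and DESeq2, with genome build mm9. The aligner and the program that made the per-library values are not given in the sources used here. The deposited per-library values were taken as FPKM, inferred from their digits and their relation to transcript length. The base means that the authors deposited hold a normalized signal, averaged over each group and given without SD. Deposited columns with the authors' fold changes, p-values and adjusted p-values of BK KO against WT were not used. All columns were matched by name and 0 were left unmatched.

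log2(FPKM + 1) of the 196 shared genes entered a linear model per gene with moderated variance but without trend or block (limma 3.58.1, R 4.3.3), and p-values were adjusted by Benjamini-Hochberg over these genes. The WT libraries, the BK KO libraries and the interaction were fitted apart. The fit was tested on simulated data. Summaries and figures were made in Python 3.11.15 with pandas 2.3.3, numpy 2.4.6 and matplotlib 3.10.9.

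A rule named the shared ones of 26 listed genes, Kcnma1 among them, and called genes, 8 in all. The paper names further shared genes that this list leaves out. Another 17 genes with log2 differences, and the further genes given by level, were added with their values in view. The values of 1 of them are not reported here. The members and the 19 marker lists were chosen with earlier results of these data known. Alternatives were pseudocounts of 0.1 and 0.5, a minimum mean of 1 FPKM, a variance trend in limma, blocking by replicate number, centred libraries and leaving out each library. The pairing check used the numbers in the labels. Deviations of same-numbered BK KO hippocampus and cortex libraries from their group means correlated across genes (r = 0.51, 0.66 and 0.55). Same-numbered BK KO libraries were therefore taken as pairs in the block. The labels do not say that they came from the same mouse, and other links between them were not tested. In limma the block gave 0 called genes and 29 at an unadjusted p-value under 0.05.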

Additional observations from a re-analysis of the deposited data

How the results depend on the processing

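In WT mice 0 genes had an adjusted p-value under 0.05 in limma under any alternative run, with 0 to 8 genes at an unadjusted one and a smallest adjusted p = 0.907. The WT tissues came from the same mice, but which libraries belong together is not given. Deviations of same-numbered libraries correlated at -0.00, 0.49 and 0.02, those of WT hippocampus 1 and WT cortex 3 at 0.42, and 3 of 6 libraries correlated best with their own number. With the replicate number as a block, 0 WT genes were called, 3 had an unadjusted p-value under 0.05, and the smallest adjusted p was 0.994. Under the other 5 ways to match the WT libraries, 0 genes were called, 0 to 6 had an unadjusted p-value under 0.05, the smallest adjusted p was 0.988, and 124 to 174 genes had an interval between -0.58 and 0.58. In BK KO mice the block changed no call (0 genes), and 0 genes were called under any alternative run, with 2 to 29 at an unadjusted p-value under 0.05 and a smallest adjusted p = 0.0701. The number of WT genes with groups that did not overlap was 5 with a minimum of 1 FPKM and 19 to 36 with a library left out, and in BK KO mice 10 and 32 to 47, which follows from fewer genes and fewer libraries. Intervals between -0.58 and 0.58 were found in 51 genes with a pseudocount of 0.1, which widens the scale of low genes. The BK KO count by an unadjusted p-value and a difference beyond 0.58 was 2. The BK KO median was 0.11 with a pseudocount of 0.1 and -0.043 with centred libraries, and the cause was not tested. The WT median was -0.00 to 0.05 with a library left out. Of 293 alternative values of named genes, 4 changed sign, all with a library left out. Alpl ran from -0.14 to 0.13 and Ucp2 from -0.10 to 0.30. The alternatives for the 17 added genes, for the interval counts, for BK KO groups, for the interaction, for the other matchings and for library distances were chosen after seeing the data. Depth is unknown, so the precision of genes under 1 FPKM, 53 in WT mice, cannot be given from counts.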
